A study of Ovis aries with 9 samples.

Results

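Genes of the ciliated lining of the brain ventricles and of tanycytes were followed in the hypothalamus of Dolang ewes around the first estrus. FOXJ1, RSPH1, TEKT1, DNAI1 and SPAG6 mark the ciliated ependyma, and RAX, VIM and NES mark tanycytes and other glia. The 8 members were chosen by symbol from 21284 genes with annotated mRNAs. Their own values were not used, but earlier results of these data were known. Of the 8 members, 6 were among the 14238 genes kept for testing. The average of a kept gene over the 3 libraries reached 0.5 FPKM in 1 stage or more. FPKM is a read fragment count scaled to the length of the transcript and the size of the library, so levels can be set side by side between genes. A gene's level here is the sum of the FPKM of its annotated mRNAs in 1 library.

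RNA of whole hypothalamic tissue was sequenced from 9 ewes, with 1 library per animal. The 3 prepuberty ewes were 120 days old, the 3 puberty ewes were 130 days old and had been seen in their first estrus, and the 3 postpuberty ewes were 150 days old. No treatment was compared and all ewes were kept alike, and each stage had 1 age, so age and stage cannot be told apart. The libraries are named Prepuberty 1 to 3, Puberty 1 to 3 and Postpuberty 1 to 3.

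The ependyma is the cell layer that lines the brain ventricles, and its cells carry motile cilia that move cerebrospinal fluid. A motile cilium is built on microtubule doublets, with dynein arms that drive the beat and radial spokes and a central pair that shape it, and FOXJ1 is the transcription factor that switches on many of the genes for these parts. In the floor of the third ventricle the lining holds tanycytes, glia with long processes into the hypothalamus that take part in thyroid hormone supply and in the release of gonadotropin-releasing hormone.

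Puberty 2 stood apart from the other libraries. Its FPKM summed to 599726, against 359588 to 398109 in the other 8, and 32 genes that reached an FPKM of 10 in every other library were listed at 0 in it. Spearman correlations of gene levels between libraries were 0.678 to 0.729 for the 8 pairs with Puberty 2 and 0.849 to 0.954 for the 28 pairs without it. The stage comparisons below are therefore given with all 9 libraries and without Puberty 2. The table holds no read counts, so no counting interval was computed. Of the 9 hypothalamus markers listed, AGRP, SIM1 and NKX2-1 were below an FPKM of 0.5 in all 9 libraries.

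FOXJ1 (gene 101117859, chromosome 11, 54887514-54892321, assembly ARS-UI_Ramb_v3.0) varied most between animals. Its FPKM was 9.90, 0.434 and 1.96 in Prepuberty 1, 2 and 3, then 4.54, 3.55 and 11.8 in Puberty 1, 2 and 3, and 1.44, 0.382 and 2.99 in Postpuberty 1, 2 and 3. All 3 puberty libraries lay above all 3 postpuberty libraries, while the prepuberty libraries spanned almost the whole range. The highest library held 30.8 times the level of the lowest, and within the prepuberty ewes alone the ratio was 22.8.

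TEKT1 (gene 101103164, chromosome 11, 24931576-24946775) encodes a tektin, a filament protein inside the doublet microtubules. Its FPKM was 4.90, 0.576 and 1.21 before puberty, 1.78, 3.05 and 5.86 at puberty, and 1.55, 0.937 and 2.39 after it. As for FOXJ1, Puberty 3 was the highest library and Prepuberty 1 the second, and Prepuberty 2 and Postpuberty 2 were the lowest pair. The stages overlapped in every comparison.

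RSPH1 (gene 101105125, chromosome 1, 263441254-263455599) encodes a radial spoke head protein. It was measured at 2.63, 2.43 and 0.868 FPKM before puberty, 0.667, 1.88 and 3.37 at puberty and 0.579, 2.09 and 0.865 after. Puberty 3 and Prepuberty 1 were again the highest libraries. Prepuberty 2 and Postpuberty 2, the lowest libraries for FOXJ1, came next in order, so RSPH1 did not follow FOXJ1 across the remaining animals.

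DNAI1 (gene 101122250, chromosome 2, 37039781-37108785), which encodes an intermediate chain of the outer dynein arm, was low. Its FPKM was 0.575, 0.281 and 0.548 in the prepuberty ewes, 0.645, 1.47 and 0.888 in the puberty ewes, and 0.262, 0.385 and 0.32 in the postpuberty ewes. The 3 puberty libraries lay above all 6 others, with the highest value in Puberty 2. DNAI1 passed the filter on low levels only through the puberty stage, whose mean was 1.0 against 0.468 before and 0.322 after.

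The DNAI1 sum was made of different mRNAs in different libraries. Of 8 annotated mRNAs, XM_004004128.6 carried 71.9% of the summed FPKM, and its own level was 0.385, 0.200 and 0.374 before puberty, 0.183, 1.47 and 0.311 at puberty and 0.261, 0.385 and 0.293 after. On this mRNA alone the stages overlapped in all 3 comparisons. Puberty 1 owed 0.443 FPKM to XM_027964285.3, which was above 0 in 1 other library, and Puberty 3 owed 0.531 to XM_042243087.2, which was above 0 in no other.

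SPAG6 (gene 101103745, chromosome 13, 22868653-22979783), a protein of the central pair, was below the filter and was not tested. Its FPKM was 0.255, 0.0608 and 0.0840 before puberty, 0.0833, 0.0752 and 0.324 at puberty and 0.134, 0.0664 and 0.0815 after. Puberty 3 and Prepuberty 1 were the highest here too. All of it came from 1 of 6 annotated mRNAs.

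RAX (gene 101117038, chromosome 23, 58577646-58582386), the homeobox factor that marks tanycytes, was at or near 0. It was listed at 0 in Prepuberty 3, Puberty 2, Puberty 3 and Postpuberty 2, and its highest level was 0.0975 FPKM, in Prepuberty 1. The defining tanycyte marker was thus not measurable above this floor, and the other 2 genes of the group, VIM and NES, are also made by other cells. No statement on tanycytes as such is made from them below.

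VIM (gene 443105, chromosome 13, 31056126-31064138) encodes vimentin, an intermediate filament of tanycytes, astrocytes, vessel cells and fibroblasts. Its FPKM was 238, 53.3 and 82.3 before puberty, 77.8, 103 and 167 at puberty, and 272, 63.6 and 177 after it. It was by far the most abundant member, at rank 288 of all genes by mean level. Postpuberty 1 and Prepuberty 1 were high, Prepuberty 2 and Postpuberty 2 were low, and each stage held both high and low libraries.

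NES (gene 101106557, chromosome 1, 106630036-106643778) encodes nestin, an intermediate filament of neural progenitors, tanycytes and endothelium. It was measured at 4.48, 2.66 and 5.13 FPKM before puberty, 3.71, 2.25 and 4.01 at puberty and 5.02, 4.25 and 5.33 after. All 3 postpuberty libraries lay above all 3 puberty libraries, and the prepuberty libraries overlapped both. The lowest value was that of Puberty 2.

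**Figure D1:**
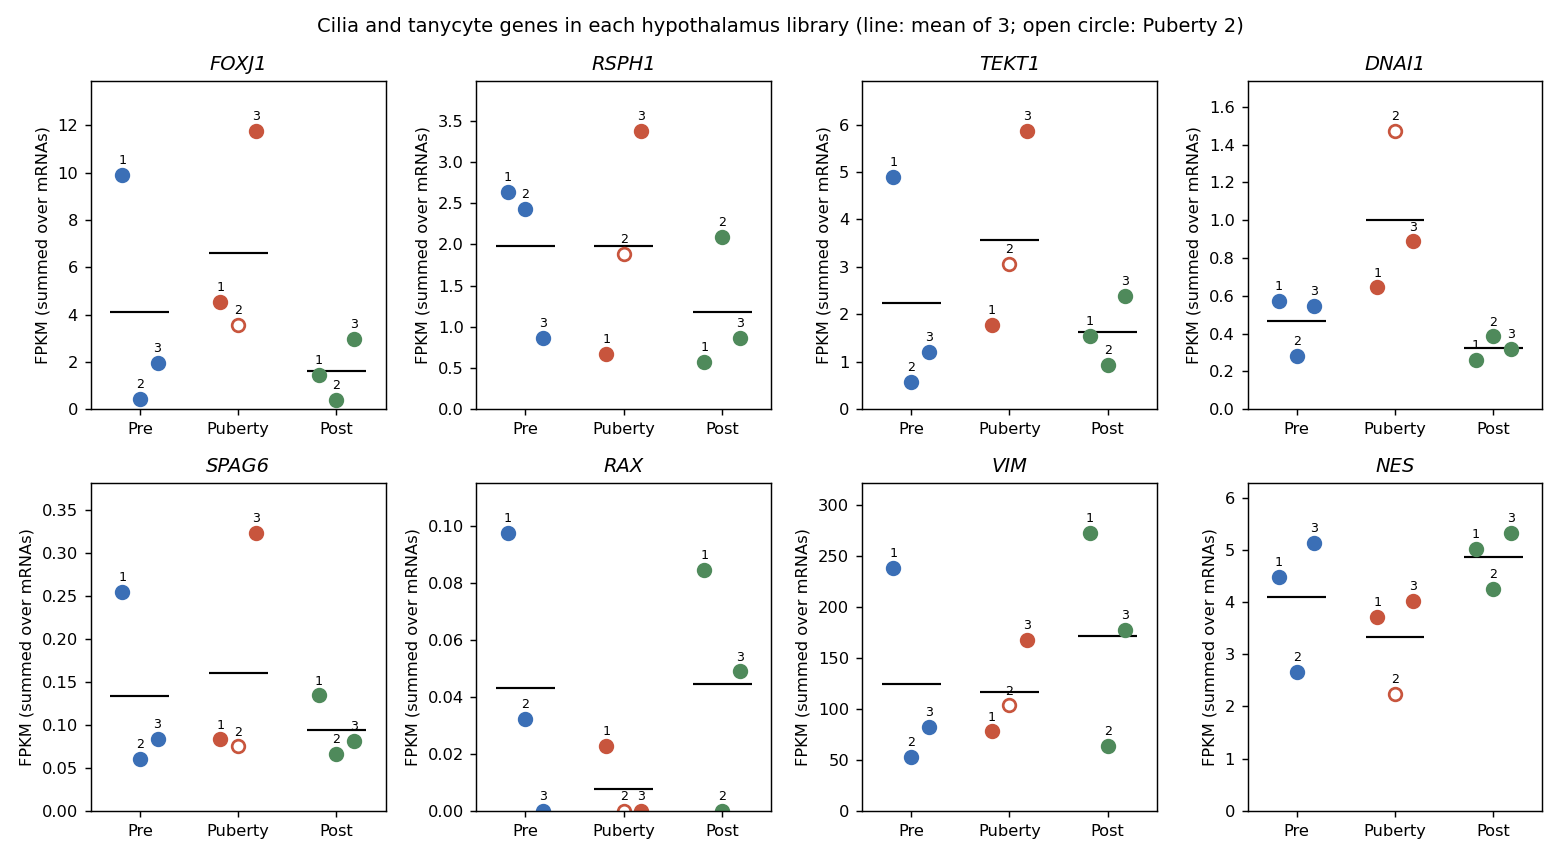
FPKM of each member (vertical axis, linear, each panel on its own scale) in the 9 libraries by stage, numbered by replicate, with a line at the mean of 3 and an open circle for Puberty 2. FOXJ1, TEKT1, RSPH1 and SPAG6 were highest in Puberty 3 and Prepuberty 1, DNAI1 lay higher at puberty than at both other stages, and RAX did not exceed 0.0975.

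The first question was whether the genes differed between the stages around first estrus. Levels were compared on the log2(FPKM + 1) scale with limma across all 14238 genes, with fold changes given as the first stage minus the second. On this scale the change of low genes is understated. A gene was called at an adjusted p-value below 0.05 and a log2 fold change of at least 1 in size. None of the 6 tested members was called in any comparison, and 0% of all genes were called in each, although 259, 305 and 116 genes (1.82%, 2.14% and 0.815%) had an unadjusted limma p-value below 0.05 in prepuberty versus puberty, puberty versus postpuberty and prepuberty versus postpuberty. The smallest adjusted p-values over all genes were 0.760, 0.676 and 0.699 in the same order.

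The largest difference among the members was that of FOXJ1 between puberty and postpuberty. Its FPKM was 6.62 ± 4.48 (SD, n = 3) at puberty and 1.60 ± 1.31 after it, and limma gave a log2 fold change of 1.53 with a standard error of 0.74, a 95% interval from -0.14 to 3.19 and an adjusted p-value of 0.780. Without Puberty 2 the limma log2 fold change was 1.82 with a standard error of 0.86. The difference was thus not separated from the spread between animals, although no library overlapped. The exact two-sided permutation p-value was 0.1, the smallest that 3 animals against 3 can give.

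DNAI1 was kept for testing only through puberty, the stage where it was high, so its puberty comparisons are given as a description and no test is read from them. Between puberty and postpuberty its log2 fold change was 0.58 with a limma standard error of 0.21, and 0.42 with a standard error of 0.17 without Puberty 2. In prepuberty versus puberty it was -0.43 with a standard error of 0.21, and -0.27 with a standard error of 0.17 without Puberty 2. On the most abundant mRNA alone the puberty versus postpuberty value was 0.25.

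The other members gave smaller differences relative to their errors. For NES the limma log2 fold change of puberty versus postpuberty was -0.46 with a standard error of 0.30, and -0.27 with a standard error of 0.24 without Puberty 2, its lowest library. For TEKT1 it was 0.74 with a standard error of 0.52, and 0.77 with 0.61 without Puberty 2. For RSPH1 it was 0.40 with a standard error of 0.43, and 0.37 with 0.50 without Puberty 2. VIM gave -0.40 with a standard error of 0.65, and -0.35 with 0.78 without Puberty 2. In all 9 libraries the 95% interval of VIM, from -1.87 to 1.08, leaves room for a difference of more than 1 log2 unit in either direction.

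Members whose libraries did not overlap were counted next, beside the same count over all genes. In puberty versus postpuberty 3 of the 6 tested members did not overlap, FOXJ1 and DNAI1 higher at puberty and NES lower, against 7.32% of all genes. In prepuberty versus puberty it was 1 member, DNAI1, against 5.16% of all genes, and in prepuberty versus postpuberty it was 0 against 4.57%. As DNAI1 was kept only through its puberty level, nothing is read from its place in these counts, which are 2, 0 and 0 of 5 members without it. Without Puberty 2 the counts over 6 members were 3, 1 and 0 again, against 14.1%, 11.7% and 4.53% of all genes. In puberty versus postpuberty 2 members were left when each library was scaled to an equal total, where FOXJ1 overlapped, and 2 on the highest transcript of each gene, where DNAI1 did.

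**Figure D2:**
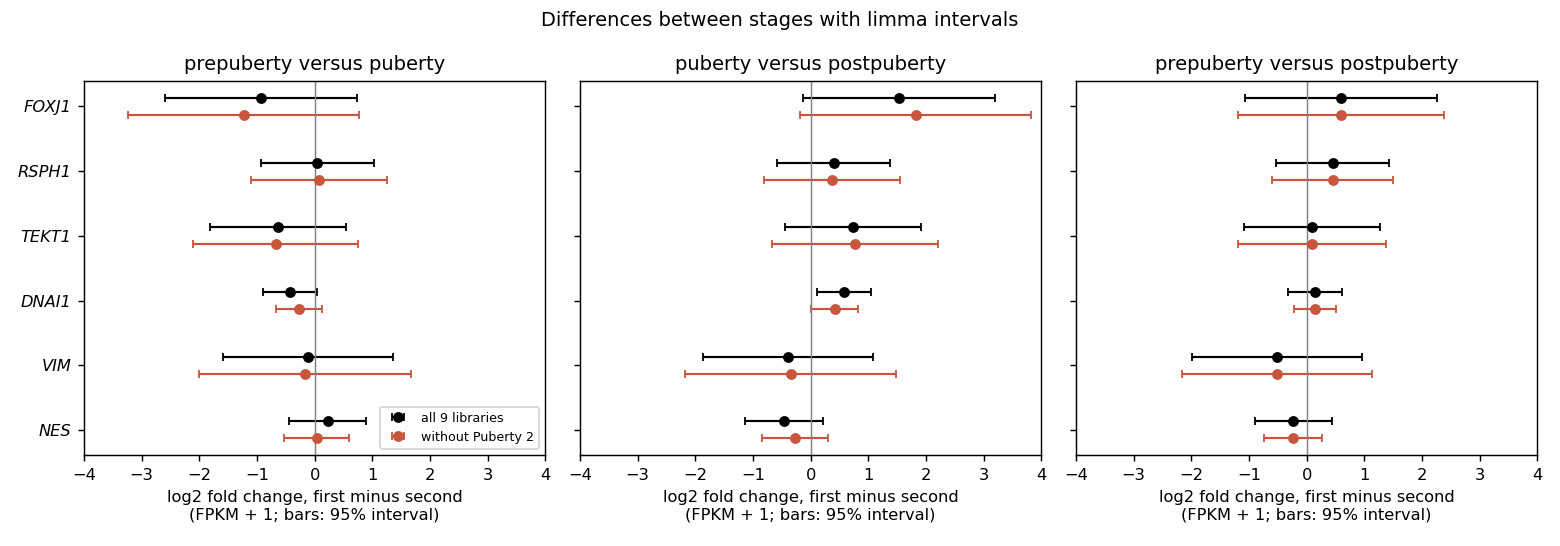
Log2 fold change of the 6 tested members (horizontal axis, first stage minus second, on log2(FPKM + 1)) in 3 comparisons, with 95% limma intervals, from all 9 libraries in black and without Puberty 2 in red. The intervals of FOXJ1 and VIM are the widest, and that of DNAI1, kept for testing only through its puberty level, is the narrowest.

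The spread between ewes of 1 stage was large for several members. Over the 8 libraries without Puberty 2, the SD within stages on the log2 scale was 1.12 for FOXJ1, 1.03 for VIM, 0.79 for TEKT1 and 0.64 for RSPH1, against a median of 0.29 over all genes. FOXJ1 exceeded 97.5% of all genes in this measure and VIM exceeded 96.6%. NES, at 0.26, and DNAI1, at 0.13, were nearer to or below the median gene.

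**Figure D3:**
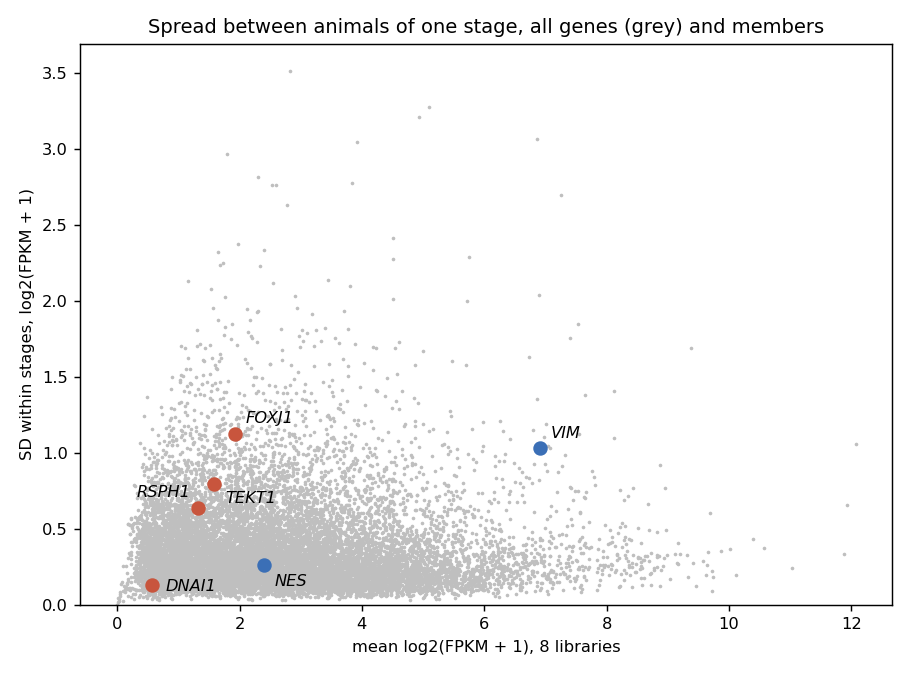
SD of log2(FPKM + 1) within stages (vertical axis) against mean log2(FPKM + 1) (horizontal axis) over 8 libraries without Puberty 2, for all genes past the filter in grey, the 4 tested cilia members in red, and VIM and NES in blue. FOXJ1 at 1.12 and VIM at 1.03 lie near the upper edge of genes of their level, and NES at 0.26 lies among the bulk.

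The second question was whether the members moved together from ewe to ewe. Over 21 pairs of the 7 members other than RAX, FOXJ1 and TEKT1 were most alike, with Pearson's r of 0.944 (exact permutation p = 0.000378, adjusted 0.00793, n = 9) and Spearman's rho of 0.917 (exact permutation p = 0.00131, adjusted 0.0275). Their r was 0.916 without the 2 libraries farthest from the median of FOXJ1, 0.947 within stages and 0.951 without Puberty 2. It was the sole pair below 0.05 after adjustment over the 21 pairs in all 9 libraries, and without Puberty 2 TEKT1 with SPAG6 was a second one by Pearson's r.

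SPAG6 followed the same libraries but at very low levels. Its r with TEKT1 was 0.831 (exact permutation p = 0.00676, adjusted 0.0687, n = 9, rho 0.683 with adjusted exact p = 0.206), and it fell to 0.243 without Prepuberty 1 and Puberty 3, so the relation rests on those 2 libraries. Without Puberty 2 the r was 0.915 (exact permutation p = 0.00434, adjusted 0.0456, n = 8, rho 0.786 with adjusted exact p = 0.193), and 0.452 when those 2 libraries were left out as well. RSPH1 was related to FOXJ1 with r of 0.283 (exact permutation p = 0.448, adjusted 0.627, n = 9) and rho of 0.300 (exact permutation p = 0.437, adjusted 0.611).

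VIM was not tied to the cilia genes past the threshold. Its r with FOXJ1 was 0.565 (exact permutation p = 0.117, adjusted 0.304, n = 9) and its rho was 0.433 (exact permutation p = 0.250, adjusted 0.525). Within stages the r was 0.858, a description with no test of its own, and without the 2 farthest libraries the pooled r was 0.446. The r of VIM with NES was 0.495 (exact permutation p = 0.184, adjusted 0.351, n = 9), with a rho of 0.517 (exact permutation p = 0.162, adjusted 0.425).

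The pattern of Prepuberty 1 and Puberty 3 was then read in other genes of the motile cilium and the ciliated ependyma, 68 genes in 5 lists besides the members, of which 66 were matched and 42 passed the filter. This reading was made after the members' values had been seen. In 24 of the 42 genes, 57.1%, the 2 highest of the 8 libraries without Puberty 2 were Prepuberty 1 and Puberty 3, against 4.8% of all genes. Over all matched genes, whatever their level, the count was 35 of 66, against 5% of all genes above 0. The 42 genes had a median r of 0.78 with the mean log2 level of the 5 cilia members over these 8 libraries. The median over all genes was 0.05. A gene can be kept through a high level in Prepuberty 1 or Puberty 3, so the values of the 42 genes are a description only. These genes were measured in the same libraries and listed for the same structure or cell layer, so they are not treated as independent of each other.

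Over all matched genes, 11 of 15 dynein arm and assembly genes and 9 of 15 other ependyma genes had the pattern. So did 4 of 11 radial spoke and central pair genes, 7 of 15 ruler, nexin link and microtubule inner protein genes and 4 of 10 regulators. The share of all genes above 0 was 5%. Among kept genes it was 7 of 8, 7 of 11, 3 of 6, 5 of 12 and 2 of 5 in the same order, against 4.8%. The differences between lists were not tested. ZMYND10, a dynein arm assembly factor, was measured at 6.66, 4.39 and 3.48 FPKM before puberty, 4.70, 11.8 and 7.95 at puberty and 3.09, 3.26 and 4.69 after. CFAP45, a microtubule inner protein, was measured at 4.29, 0.524 and 1.28 FPKM, then 3.01, 7.13 and 9.32, and 1.49, 0.222 and 2.39. ROPN1L, a radial spoke protein of cilia and flagella, followed with 3.89, 1.88 and 1.95, then 1.82, 4.96 and 4.51, and 2.46, 1.32 and 2.22.

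Some listed genes did not follow the cilia members. The r with the cilia members' mean was 0.39 for RSPH9, a radial spoke head protein, 0.03 for PIERCE1, a microtubule inner protein, and -0.04 for DYDC2. PIERCE1 was at 4.13 FPKM in Prepuberty 2 and 4.02 in Postpuberty 2, its highest libraries, where FOXJ1 was lowest, and at 0.996 in Postpuberty 1. Among the regulators, RFX4 had an r of 0.60 with the cilia members and 0.97 with VIM. RFX2 and RFX3, factors of ciliogenesis, had r of 0.62 and 0.79 with the cilia members.

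**Figure D4:**
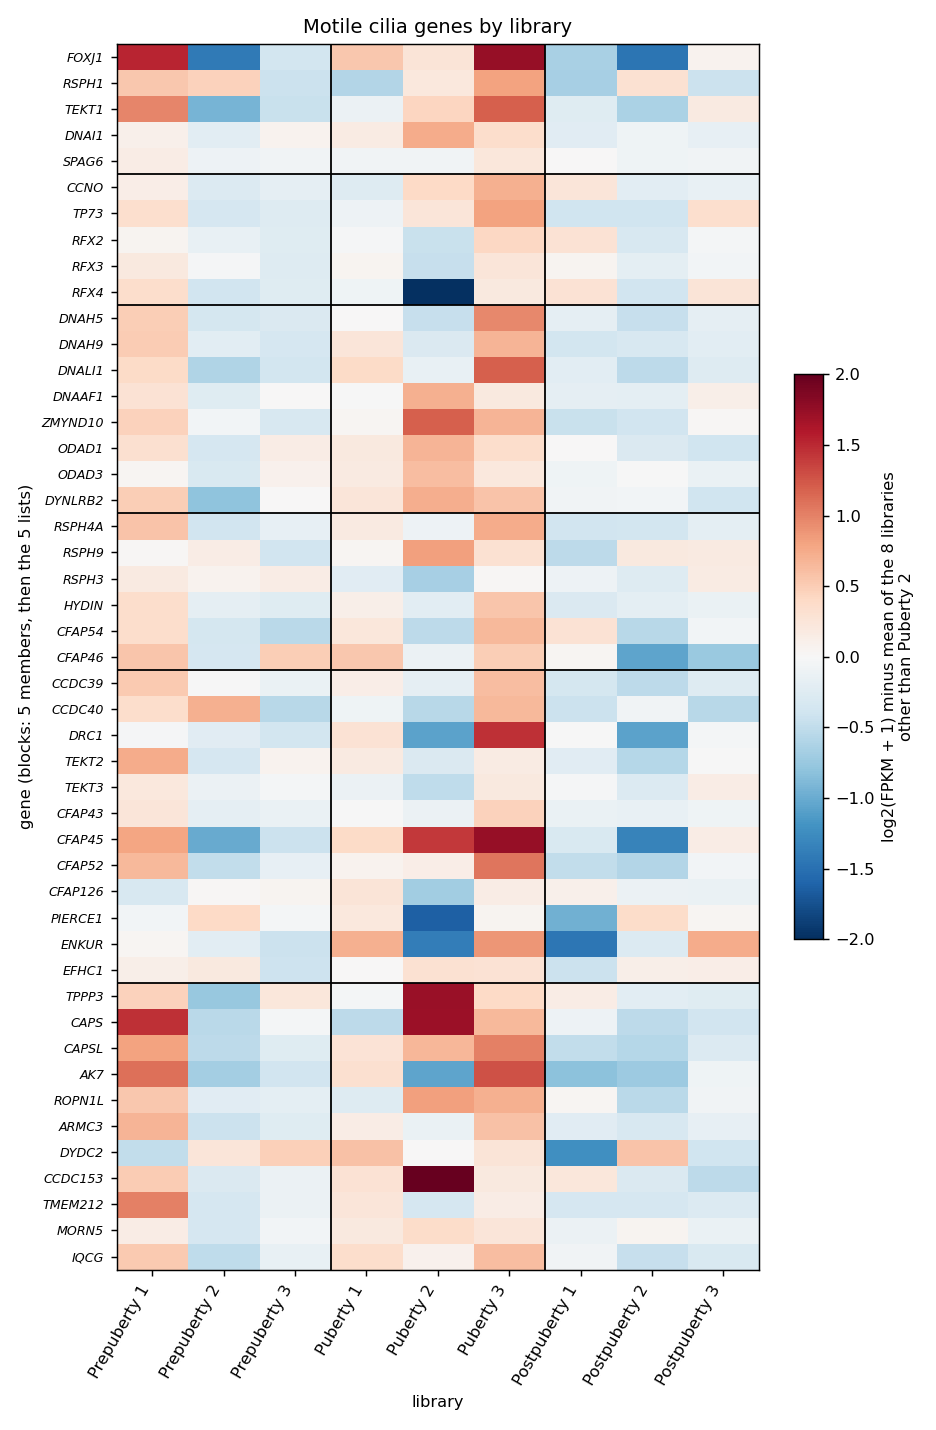
Log2(FPKM + 1) of the 5 cilia members and of 42 listed cilia and ependyma genes (rows, in blocks by list) in 9 libraries (columns), each gene centred on its mean over the 8 libraries other than Puberty 2, with the colour scale ending at 2 in either direction. The columns of Prepuberty 1 and Puberty 3 are red in most rows, and Puberty 2 is high in some rows and low in others.

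Across stages, no gene of the 5 cilia and ependyma lists was called. In puberty versus postpuberty, 16 of the 66 matched genes, whatever their level, had all 3 puberty libraries above all 3 postpuberty libraries and 0 had the reverse, against 2.21% and 4.65% of all genes. Without Puberty 2 it was 39 of 66 higher and 0 lower, against 6.82% and 6.98%. Of the 42 genes kept for testing, 13 were higher and 0 lower, against 2.07% and 5.25%. Of these 42, 8 were kept only through puberty, and among the other 34 it was 11 higher and 0 lower, against 1.76% and 5.35% of genes kept the same way. Without Puberty 2 it was 25 of 43 kept genes, against 6.19% higher and 7.9% lower, and 19 of the 34 kept through another stage, against 5.57%. Without Puberty 3 it was 13 of 37, against 3.96%. When each library was scaled to an equal total the count fell to 8 of 42, against 1.6%. The median log2 fold change of the 34 genes was 0.54, where that of all genes kept the same way was -0.20, and without Puberty 2 it was 0.53 against -0.03.

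The 13 genes included the outer arm docking genes ODAD1 and ODAD3, the dynein genes DNALI1 and DYNLRB2, and CCDC39, part of the ruler that spaces the dynein arms. Of the 42 genes 5 had an unadjusted limma p-value below 0.05, against 2.14% of all genes, and all 5 were among the 34 kept through another stage than puberty. Without Puberty 2 it was 10 of 43, against 2.11%, and 9 of those 34, against 1.86% of genes kept the same way. These genes, and the genes of the other comparisons given next, were chosen after their values were seen. CAPSL had a log2 fold change of 1.09 with a standard error of 0.35, CFAP45 of 1.68 with a standard error of 0.57, and ZMYND10 of 0.91 with a standard error of 0.36. ODAD1, at 0.64, and CFAP46, at 0.89, were the others. Each had an adjusted limma p-value of 0.780. Without Puberty 2 the values were 1.09, 1.56, 0.63, 0.50 and 1.10 in the same order, and ZMYND10 and ODAD1 no longer had an unadjusted p-value below 0.05.

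The prepuberty libraries overlapped puberty in most of these genes. In prepuberty versus puberty 1 of the 42 genes, RSPH3, was higher in all prepuberty libraries and 2, ODAD3 and MORN5, were lower, against 2.84% and 2.32% of all genes. MORN5 was kept only through puberty, so nothing is read from its place in the count. Over the 66 matched genes with no filter, 3 were lower in all prepuberty libraries, against 2.39%. That count was 21 without Prepuberty 1, against 6.67%, and 11 without Puberty 1, against 6.78%. Of the 26 genes kept through another stage than puberty without Prepuberty 1, 7 were lower, against 6.23%. Without Puberty 2 it was 4 lower and 1 higher of the 43 kept genes, against 7.16% and 4.55%. In prepuberty versus postpuberty 1 gene, CCDC39, was higher and 0 were lower, against 1.4% and 3.17%, and without Prepuberty 2 it was 11 of 44 higher, against 4.17%.

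Among 15 further tanycyte genes, 11 passed the filter and none was called in any comparison. With all 9 libraries 0 of the 11 genes had stages that did not overlap, against 5.16%, 7.32% and 4.57% of all genes. Without Puberty 2 it was 1 gene lower in prepuberty than at puberty, FGF10, and 2 genes higher at puberty than after it, CRYM and ADM, against 11.7% and 14.1% of all genes. CRYM, which encodes a thyroid hormone binding protein, then had a log2 fold change of 0.93 with a standard error of 0.29 and an adjusted limma p-value of 1. GPR50, an orphan receptor of tanycytes, was listed at 0 in 7 of 9 libraries, and COL25A1, FGF18 and SLC17A8 were also below the filter. Those with the highest levels included PTN at a mean of 102.9 FPKM, RARRES2 at 83.4 and the retinoic acid binding protein CRABP1 at 12, which had r with VIM of 0.74, 0.90 and 0.72 over 8 libraries. RARRES2 stood at 315 in Puberty 2 and at 24.5 to 99.3 in the others. Over the 11 genes the median r with VIM was 0.72, against 0.15 over all genes, but not all followed VIM. LHX2 was at 4.31 FPKM in Prepuberty 2 and 1.53 in Postpuberty 2, where VIM was low, and at 0 to 0.389 elsewhere. DIO2 was at 2.90, 2.91 and 2.70 in Prepuberty 2, Puberty 1 and Postpuberty 2, and at 0.815 to 2.27 elsewhere.

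Of 11 intermediate filament and radial glia genes, all 11 were tested and none was called. GFAP, the intermediate filament of astrocytes, was at 2348 to 6624 FPKM and had an r of 0.97 with VIM. SOX2, a factor of neural progenitors and glia, had an r of 0.75 with VIM and was at 2.46 FPKM in Puberty 2 against 26.9 to 49.1 elsewhere. The glutamate transporter SLC1A3 had an r of -0.67. HES5, a Notch target, was lower in all puberty libraries than in all postpuberty libraries, the sole gene of this list whose stages did not overlap in any comparison of all 9 libraries, 1 of 11 against 7.32% of all genes. Without Puberty 2 HES5 did so again, against 14.1%, and SYNM was lower in prepuberty than at puberty, against 11.7%. FGF10, CRYM, ADM, LHX2, DIO2, HES5 and SYNM were named after their values were seen.

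The genes most like each member profile were named by Pearson's r over the 8 libraries without Puberty 2. For the mean of the 5 cilia members these were CCDC180, CFAP52, PIH1D2, NME9 and SAXO3, with r from 0.983 to 0.991. With Puberty 2 the r of PIH1D2 was 0.39, and those of CFAP52 and NME9 were 0.98. For VIM they were CREB3L2, BGN, BMP6, HMGN3 and CRABP2, with r from 0.989 to 0.994. For NES they were ABHD15, NKX6-2, S100A1, FBXO7 and PRR33, with r from 0.951 to 0.961, but with Puberty 2 included NKX6-2 and S100A1 had r of -0.39 and -0.36. RAX, at or near 0, was given no such list.

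Markers of other cell types moved with these genes. In bulk tissue fewer cells of a type and less RNA per cell cannot be told apart. Over 7 choroid plexus epithelium markers, none of them at 0 in all libraries, the summed FPKM was 13.4 to 342 before puberty, 257 to 7657 at puberty and 39.8 to 732 after. The highest sum, in Puberty 3, was almost all TTR, transthyretin, at 7594. KCNJ13 at 29.8, AQP1 at 13.3, KL at 9.17, CLIC6 at 6.24 and SLC4A5 at 1.63 were also highest in Puberty 3. OTX2 was highest in Prepuberty 2, at 3.48, and was at 3.11 in Puberty 3. The choroid plexus markers had a median r of 0.73 with the cilia members' mean over 8 libraries, and single markers ranged from -0.11 to 0.85. The summed level of the 5 cilia members was also highest in Puberty 3, at 22.2. Prepuberty 2 was lowest in both sums, at 3.78 for the cilia members and 13.4 for choroid plexus. Prepuberty 1, with a cilia sum of 18.3, had a choroid plexus sum of 342, while Postpuberty 3, with 6.65, had 732. The part of choroid plexus tissue in the cilia result was not tested.

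VIM varied with markers of vessel walls and connective tissue. Over 9 mural cell and fibroblast markers the sum was 115 to 329 before puberty, 103 to 295 at puberty and 99.6 to 682 after, with the highest value in Postpuberty 1, also the highest for VIM. The median r with VIM was 0.88 for these 9 markers, 0.84 for 8 endothelium markers, 0.68 for 5 microglia markers, 0.55 for 4 oligodendrocyte markers, 0.47 for 6 astrocyte markers and -0.69 for 7 neuron markers. The astrocyte markers ranged from -0.82 to 0.97. Summed neuron markers were 552 to 1326 before puberty, 270.3 to 1077 at puberty and 411 to 1198 after. For NES the median r was 0.68 with the oligodendrocyte markers, 0.60 with endothelium, 0.46 with microglia and 0.42 with astrocyte markers. It was 0.33 with the mural cell and fibroblast markers and -0.59 with the neuron markers. The part of these cells in the levels of VIM and NES was not tested.

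**Figure D5:**
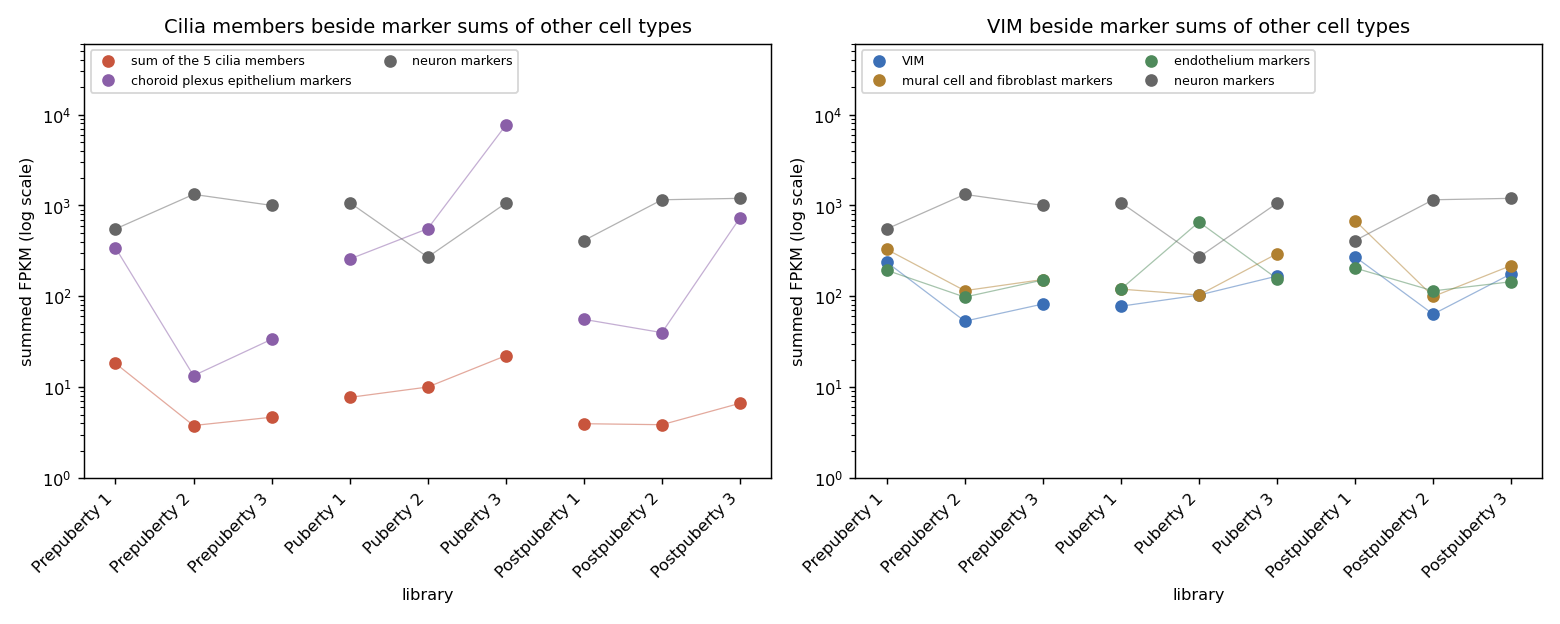
Summed FPKM (vertical axis, log scale) in each library (horizontal axis, lines join libraries of 1 stage) of the 5 cilia members with choroid plexus and neuron markers, left, and of VIM with mural cell and fibroblast, endothelium and neuron markers, right. The choroid plexus sum peaks at 7657 in Puberty 3, and VIM and the mural cell and fibroblast sum are both highest in Postpuberty 1.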

How the data were processed

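Hypothalamus RNA of 9 ewes, 3 per stage, was measured by paired-end sequencing of poly-T selected RNA. Per the methods and labels, the authors trimmed reads with Trimmomatic, aligned them with HISAT2 to ARS-UI_Ramb_v3.0 and quantified transcripts with StringTie. The deposited table is named for raw counts, but it holds FPKM per transcript as the authors' StringTie run gave them, so no count test was used.

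Of 115108 transcripts, 76684 carry RefSeq mRNA identifiers. Of these, 76682 were matched to genes of the same assembly and summed to 21284 genes. Genes with a mean of at least 0.5 FPKM in 1 or more stages were kept. limma 3.58.1 (R 4.3.3, trended variance) was fitted to log2(FPKM + 1) of all 9 libraries, with Benjamini-Hochberg adjustment over the 14238 genes kept. The fit was also run on simulated normal values with the spread of the 8 libraries without Puberty 2. That run does not show how the fit behaves with Puberty 2 included. Single values and correlations were given exact two-sided permutation tests (scipy 1.17.1). Members were found by RefSeq symbol.

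All 8 members, the 4 most abundant genes of each list, the 5 genes most like each profile, and mRNAs with at least 10% of a gene's FPKM were named. One further mRNA of DNAI1 was named after its values were seen. The members and lists were chosen with earlier results of these data known. Alternatives were another pseudocount, no filter, 2 scalings, array weights, no variance trend, a replicate block, the highest transcript alone and each library left out. The counts over the cilia lists and their alternatives were added after seeing the data. The symbols CFAP53, PIFO, FOLR1 and GAD1 were not matched. One gene that the naming rule gave is not reported here. The deposited table keeps no read depth, and the clean read totals that the paper gives by stage were not used. No sequences were used.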

Additional observations from a re-analysis of the deposited data

How the results depend on the processing

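No member was called under any alternative. Over the 6 tested members and 3 comparisons, 144 fold changes were recomputed under 8 other settings, of which 5 reversed, with a smallest adjusted limma p-value of 0.478, and 162 with a library left out, of which 10 reversed, with a smallest adjusted p-value of 0.516. In prepuberty versus puberty, RSPH1 went from 0.05 to -0.076 with median-ratio scaling, -0.26 with array weights, and -0.12, -0.08 and -0.31 without Prepuberty 1, Prepuberty 2 and Puberty 1. VIM went from -0.12 to 0.11 when scaled to an equal total per library, and to 0.34, 0.03 and 0.18 without Prepuberty 2, Prepuberty 3 and Puberty 3. In puberty versus postpuberty VIM went from -0.40 to 0.054 without Postpuberty 1. In prepuberty versus postpuberty FOXJ1 went from 0.59 to -0.21 without Prepuberty 1, RSPH1 from 0.45 to -0.025 with array weights, and TEKT1 from 0.10 to -0.20 with array weights, -0.46 without Prepuberty 1 and -0.10 without Postpuberty 2. With 1 library left out the ranges of these values were -0.31 to 0.38 for RSPH1 and -0.73 to 0.34 for VIM in the first comparison, -0.99 to 0.054 for VIM in the second, and -0.21 to 1.26 for FOXJ1 and -0.46 to 0.50 for TEKT1 in the third. Scaling to an equal total shifted the all-gene median by 0.24 and -0.22 log2 units in the first 2 comparisons. Median-ratio scaling shifted it by -0.11 and 0.16.

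Over all genes, array weights, which gave Puberty 2 a weight of 0.0653, called 4 genes in prepuberty versus puberty and 1 in puberty versus postpuberty, none a member, and 0 were called otherwise. DNAI1 no longer separated prepuberty from puberty on its highest transcript, which left 0 members. With 1 library left out, the members that did not overlap numbered 1 to 3 in prepuberty versus puberty (3 without Prepuberty 1, against 12.3% of all genes, and 2 without Prepuberty 2, against 14.5%), 3 to 4 in puberty versus postpuberty, against 7.3% to 20.5%, and 0 to 1 in prepuberty versus postpuberty (1 without Prepuberty 2, Prepuberty 3 or Postpuberty 2, against 17.3%, 9.37% and 12.5%). The cilia list genes that did not overlap numbered 3 to 16, 13 to 25 and 1 to 11 in the same comparisons, with 3, 13 and 1 from all libraries. The first count was 16 without Prepuberty 1, 11 without Puberty 1 and 5 without Puberty 2, against 12.3%, 14.4% and 11.7% of all genes. Some genes in it were kept only through puberty, and through another stage 8 of 26 were left without Prepuberty 1, against 11.9%. The second was 25 without Puberty 2 and 20 without Puberty 1, against 14.1% and 16.8%, and 8 when scaled to an equal total. The third was 11 without Prepuberty 2, 6 without Postpuberty 3, and 3 without Prepuberty 3 or Postpuberty 1, against 17.3%, 11.6%, 9.37% and 11%. From all libraries the shares of all genes were 5.16%, 7.32% and 4.57%. The cause of these changes was not tested.

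The replicate numbers did not pair the ewes. Each library was taken as its deviations from the stage mean of every kept gene, on the log2 scale. Between stages, the deviations of libraries of the same number had correlations from -0.315 to 0.515, above 0.1 in 2 of 9 pairs. By this measure 3 of 9 libraries correlated best with their own number. With the replicate block 0 genes were called, and the directions of all 18 fold changes were kept. FPKM keeps no depth, and the precision of SPAG6, RAX and DNAI1 at these low levels was not estimated.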
